A study of Mus musculus with 16 samples.

Results

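Large-vessel endothelial cells line the arteries and veins of the lung, as opposed to its capillaries. They were taken here as the cells that the authors' deposited annotation names large-vessel endothelial, and they numbered 1952 of 80449 cells in 15 samples. That annotation holds 12748 endothelial cells in all, of which 8330 were general capillary, 1889 aerocyte capillary and 577 lymphatic cells. Whole lungs of mice were digested, red blood cells were lysed, and live single cells were sorted, fixed and barcoded by split-pool indexing, with no gate on any cell type. The groups were mice given 6-OHDA (3 samples, 193 large-vessel cells), the drug BIBO3304 (3 samples, 391 cells) or vehicle (3 samples, 610 cells). The same treatments were also followed in mice with seeded pancreatic ductal adenocarcinoma (PDAC) cells, called here 6-OHDA-PDAC (2 samples, 122 cells), BIBO3304-PDAC (2 samples, 231 cells) and vehicle-PDAC (2 samples, 405 cells). The sources used here do not give strain, sex, age, dose, timing or the PDAC line. Nothing says either that the numbered samples are separate animals, so a p-value measures only how these samples differ among themselves, which may be technical.

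As background, 6-OHDA is a toxin that destroys sympathetic nerve terminals after uptake by the norepinephrine transporter, which the gene Slc6a2 encodes. BIBO3304 blocks NPY1R, a receptor for neuropeptide Y, a transmitter that sympathetic nerves release beside norepinephrine. The lung circulation clears part of the norepinephrine that reaches it in blood, and endothelial cells carry the transporter that takes it up. Arterial endothelium is known for Notch signalling, the connexin gene Gja5 and the kinase gene Bmx. Venous endothelium is known for the transcription factor Nr2f2 and for adhesion molecules such as P-selectin, through which leukocytes leave the blood.

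The large-vessel cells of a sample numbered 39 to 262 and together held 95342 to 645922 transcripts. The median cell held 1760.5 transcripts and 817 genes. By sample, the median ran from 1582 to 2060.5 transcripts under 6-OHDA, 2302 to 3924.5 under BIBO3304 and 1202 to 1489 under vehicle, so depth per cell was lowest in vehicle samples among the samples without PDAC cells. Across the 16 sublibraries, 18 of the cells shared their 3-part barcode with another large-vessel cell of another sublibrary. The sample vehicle-PDAC 2 held 0 annotated cancer cells although it is labelled as seeded, and the main results against vehicle-PDAC are therefore also given without it. In those fits the remaining vehicle-PDAC sample is assumed to vary like the samples of the other groups. Intervals for single samples are exact Clopper-Pearson intervals and cover counting error only.

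The label was borne out by the cells' own transcripts. With all samples pooled, Vwf, which encodes von Willebrand factor, was at 2646 CPM (counts scaled to a library of 1000000) in large-vessel cells and at 178.2 CPM in general capillary cells, the next highest of the 22 annotated types. Selp, the gene of P-selectin, was at 4604 CPM in large-vessel cells, and no other endothelial type passed 33.8 CPM. Vcam1, the gene of a leukocyte adhesion molecule, was at 759.4 CPM, against 213.8 CPM in alveolar fibroblasts, the next type. Slc6a2 was at 534.7 CPM in large-vessel cells, at 12.99 CPM in adventitial fibroblasts and at 5.135 CPM in general capillary cells. Gja5 was at 30.1 CPM, second to the 36.1 CPM of alveolar fibroblasts. Since annotation rests on expression, these levels describe the cells and are not tested.

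**Figure D1:**
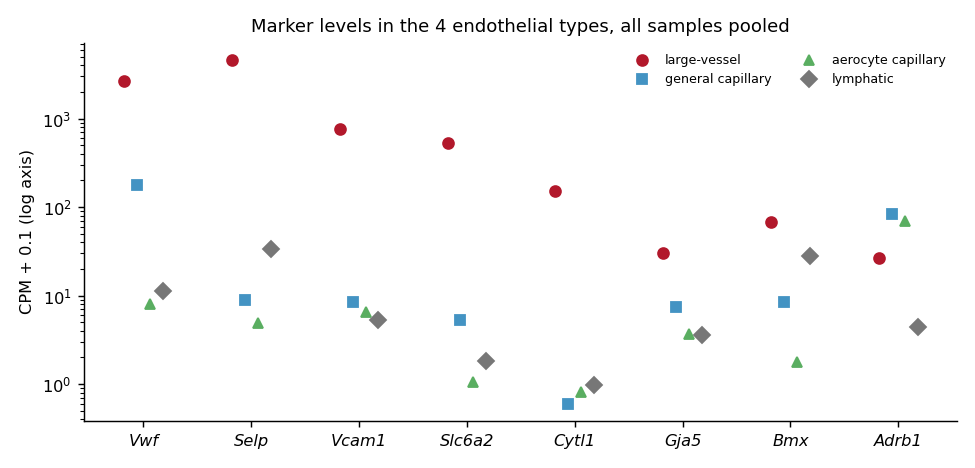
CPM plus 0.1 on a log axis for 8 genes in the 4 endothelial types, all samples pooled. Large-vessel cells stand above the other endothelial types for Vwf (2646 CPM), Selp (4604 CPM), Vcam1, Slc6a2, Cytl1, Gja5 and Bmx, and below general and aerocyte capillary cells for Adrb1 (26.7 CPM).

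The same cells led the lung for several other genes. Sele, the gene of E-selectin, was at 309 CPM, 352.5 times the highest other endothelial type. Cytl1, which encodes a secreted cytokine-like protein, was at 153.4 CPM and at 0.8669 CPM or less in the other endothelial types. Ano2, a calcium-activated chloride channel gene, was at 121.2 CPM, against at most 4.508 CPM in other endothelial cells. Transcripts from marker lists of other cell types were present too. The alveolar macrophage gene Chil3 had a median of 73.0 CPM over samples and the epithelial gene Sftpc 109.1 CPM. Lyve1, from the lymphatic list, had a median of 646.4 CPM, and whether the large-vessel cells express it themselves was not tested. The lymphatic regulator Prox1 had 38 transcripts in all samples together, and Wt1, Foxj1, Hbb-bt, Ppbp and Gp9 had 0. Other members of those lists were present, such as mesothelial Krt19 with 22 transcripts, platelet Itga2b with 39 and erythroid Hbb-bs with 7.

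The 4 markers did not fall on the same cells. Vwf was detected in 85.6% of large-vessel cells, Slc6a2 in 42.3% (825 cells), Vcam1 in 37.0% (723 cells) and Gja5 in 5.38% (105 cells). Slc6a2 and Vcam1 shared 335 cells, Gja5 and Vcam1 shared 35, and Slc6a2 and Gja5 shared 3. The cells were therefore also split by whether more genes of a venous list of 15 genes, which leaves out Slc6a2, or of an arterial list of 16 genes had a transcript in the cell. This gave 1210 venous-marked and 548 arterial-marked cells, and 194 with equal numbers. Of the classed cells, 314 lay within 1 gene of the line between the classes, so the classes are ranges and not separate types.

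Genes that the split did not use followed it. Slc6a2 averaged 700.7 CPM in venous-marked and 88.2 CPM in arterial-marked cells and was higher in the venous-marked cells of all 15 samples. Rarb, a retinoic acid receptor gene, averaged 366.1 CPM in venous-marked and 40.2 CPM in arterial-marked cells, and Nrp2, which encodes a co-receptor for class 3 semaphorins and VEGF, 472.5 and 92.1 CPM. Hpgd, which encodes the enzyme that inactivates prostaglandins, averaged 294.8 CPM in venous-marked and 177.6 CPM in arterial-marked cells. In the other direction, the chemokine gene Cxcl12 averaged 12.2 CPM in venous-marked and 233.3 CPM in arterial-marked cells, and Plat, the gene of tissue plasminogen activator, 13.8 and 549.6 CPM. Prkg1, the gene of cGMP-dependent protein kinase I, averaged 253.6 CPM in venous-marked and 5003 CPM in arterial-marked cells. Clu, which encodes the secreted chaperone clusterin, averaged 53.4 and 302.1 CPM, and Col5a2, a fibrillar collagen gene, 135.5 and 514.9 CPM. These directions held in 15 of 15 samples for each of the genes just named except Hpgd, for which they held in 14, and they are a description without a test.

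The first comparison asked how 6-OHDA-treated lungs without PDAC cells differed from vehicle lungs. Large-vessel cells made up 8.67%, 12.8% and 9.46% of the endothelial cells in the 6-OHDA samples, against 19.9%, 19.9% and 18.8% in the vehicle samples. The groups did not overlap, and the means were 10.3 ± 2.17% in 6-OHDA samples and 19.5 ± 0.644% in vehicle samples (SD, n = 3 each, two-sided exact permutation p = 0.1, the smallest that 3 against 3 allows). By class, venous-marked cells were 4.18 ± 0.527% of endothelial cells under 6-OHDA and 11.8 ± 1.94% under vehicle (exact p = 0.1, no overlap). Arterial-marked cells were 4.99 ± 2.05% of endothelial cells under 6-OHDA and 5.28 ± 1.79% under vehicle (exact p = 0.9). Among the classed cells, the venous share was 47.1 ± 11.6% under 6-OHDA and 69.0 ± 10.7% under vehicle, with overlap (exact p = 0.2). It was 42.7% against 64.8% when cells were thinned to 1000 transcripts and classed again. Cells with fewer transcripts were left out. This kept 44 of 52, 66 of 83 and 48 of 58 cells in the 6-OHDA samples. In the vehicle samples it kept 178 of 262, 67 of 106 and 172 of 242. In a share, fewer large-vessel cells and more capillary cells cannot be told apart.

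Of all cells, large-vessel cells were 1.65 ± 0.346% in 6-OHDA samples and 2.72 ± 0.895% in vehicle samples (SD, n = 3 each), and these ranges overlapped. A fit of edgeR on the cell numbers of all 22 types gave a log2 difference of -0.72 ± 0.318 (SE, Benjamini-Hochberg adjusted p = 0.217). It passed the threshold of 0.05 when alveolar macrophages were left out of the total (-1.03, adjusted p = 0.0473). It also passed without vehicle sample 2 (-0.96, adjusted p = 0.0399 by edgeR). It did not pass without any of the other 5 samples of these groups (-0.88 to -0.56, edgeR adjusted p 0.183 to 0.432), nor with TMM scaling of the cell numbers (-0.97, edgeR adjusted p = 0.0534).

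**Figure D2:**
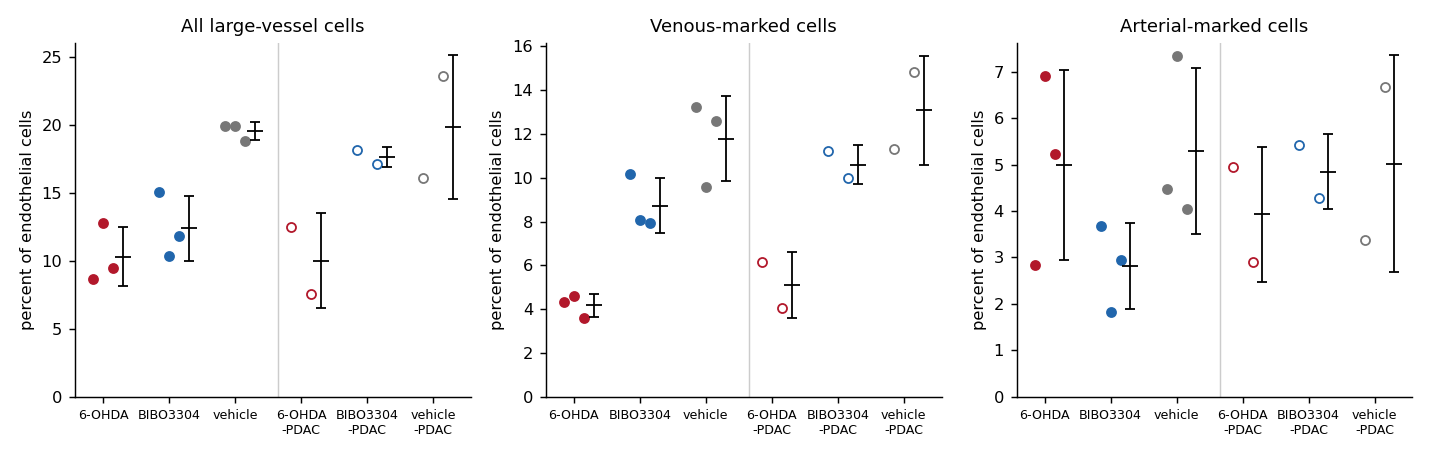
Percent of all endothelial cells of a sample that are large-vessel cells, venous-marked cells and arterial-marked cells. Points are samples, filled without and open with PDAC cells, and bars are means ± SD. In the venous panel the 6-OHDA samples lie at 3.59 to 4.61% and the vehicle samples at 9.59 to 13.2%.

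Across 5856 genes tested in the large-vessel cells, 11 differed between 6-OHDA and vehicle (0.188% of the genes tested, edgeR quasi-likelihood test on summed counts, adjusted p under 0.05), 4 higher (0.0683%) and 7 lower (0.12%). Slc6a2 was at 155.7, 117.9 and 98.96 CPM in the 6-OHDA samples, against 549.5, 611.7 and 634.6 CPM in the vehicle samples. Every 6-OHDA sample lay below every vehicle sample, and the log2 fold change was -2.26 ± 0.234 (SE, edgeR adjusted p = 7.32e-07). It was the only one of the 11 that stayed past the threshold without any one of the 6 samples (largest adjusted p 4.84e-05).

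The fall of Slc6a2 was also present within venous-marked cells, whose choice did not use the gene. There it was at 260.5, 241.8 and 199.7 CPM under 6-OHDA, against 711.3, 951.7 and 828.0 CPM under vehicle, without overlap. The log2 fold change in these cells was -1.80 (edgeR adjusted p = 0.00064 over 4676 genes). A transcript was found in 31.7 ± 9.90% of the venous-marked cells under 6-OHDA and in 58.3 ± 5.74% under vehicle, and at 1000 transcripts per cell in 14.2 ± 5.20% and 43.8 ± 3.94% (both exact permutation p = 0.1, n = 3 each). The thinned shares leave out cells with fewer than 1000 transcripts and use the class given before thinning. In arterial-marked cells it had 1 of 163123 transcripts under 6-OHDA and 22 of 266171 under vehicle, a ratio of 0.0742 with a counting interval of 0.0018 to 0.459. That interval treats pooled transcripts as independent and leaves out the spread between samples. The vehicle transcripts lay in 12 of 150 arterial-marked cells, and the edgeR test over samples did not call Slc6a2 in these cells. General capillary cells, set beside these as a type with little of the gene, had a Slc6a2 transcript in 0.476% of cells under 6-OHDA and 0.573% under vehicle at medians of 1194 and 1071 transcripts. By sample, the shares of large-vessel cells with a transcript were 21.2%, 13.25% and 8.62% under 6-OHDA, against 39.3%, 39.6% and 46.7% under vehicle, without overlap. The group medians were 1757 transcripts per large-vessel cell under 6-OHDA and 1422.5 under vehicle.

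**Figure D3:**
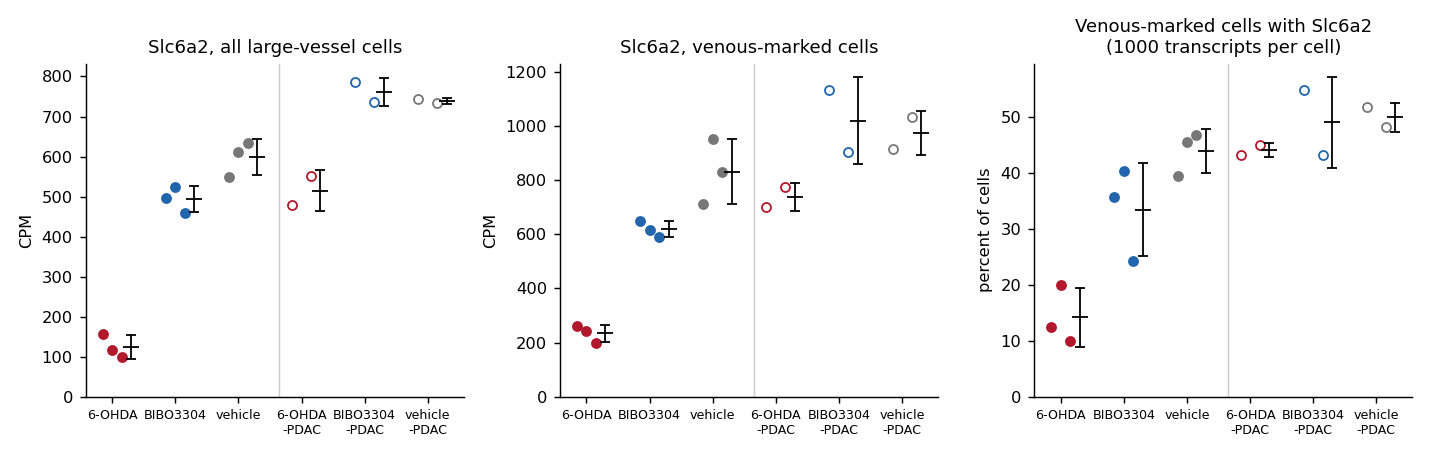
Slc6a2 in CPM per sample in all large-vessel cells and in venous-marked cells, and the percent of venous-marked cells with a Slc6a2 transcript after thinning to 1000 transcripts. Cells with fewer transcripts are left out of the third panel. Points are samples, filled without and open with PDAC cells, and bars are means ± SD. The 6-OHDA samples lie lowest in each panel, at 98.96 to 155.7 CPM in the first, and both 6-OHDA-PDAC samples lie above them.

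The other lower genes included Hpgd and Ano2. Hpgd was at 84.9, 130.3 and 68.5 CPM in the 6-OHDA samples, against 335, 316.7 and 244.4 CPM in the vehicle samples, without overlap (log2 fold change -1.62 ± 0.296, edgeR adjusted p = 0.0091). In venous-marked cells alone it fell by 1.74 on the log2 scale (edgeR adjusted p = 0.0162). The call in all large-vessel cells was lost without 6-OHDA sample 1 (adjusted p = 0.0599) and without vehicle sample 1 (adjusted p = 0.119, both edgeR). Slco2a1, which encodes the carrier that takes prostaglandins into the cell, was at 382.2, 372.2 and 380.6 CPM under 6-OHDA, against 581.5, 417.4 and 577.4 CPM under vehicle, and did not pass (log2 -0.50, edgeR adjusted p = 0.561). Ano2 was at 84.9, 31.0 and 30.5 CPM under 6-OHDA, against 167.5, 151.1 and 149.8 CPM under vehicle (log2 -1.69, edgeR adjusted p = 0.0211).

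Fmnl2, which encodes a formin that builds actin filaments, fell by 1.24 on the log2 scale, and Ccnd3, the gene of cyclin D3, by 1.69. Mir6236, a locus linked to ribosomal RNA, was at 3206, 2816 and 2664 CPM under 6-OHDA, against 14240, 8651 and 6182 CPM under vehicle. It fell by 1.74 in all large-vessel cells and by 1.65 in venous-marked cells (edgeR adjusted p = 0.00819 and 0.0162). Reads of such a locus can follow RNA or library quality, whose part in the differences between these groups was not tested. Tenm2, a teneurin gene of cell adhesion, had 0 of 439709 transcripts in the 6-OHDA group and 48 of 1211423 in the vehicle group, which is at least 5.81-fold lower with a floor of 3 transcripts over the group. Venous-marked cells by themselves gave 3 calls (0.0642% of 4676 genes), which were Slc6a2, Hpgd and Mir6236. Slc6a2 was the 1 call left without 6-OHDA sample 1, 6-OHDA sample 2 or vehicle sample 1, and 19 genes were called without 6-OHDA sample 3. Arterial-marked cells gave 0 by edgeR with 2103 genes tested (129 at an unadjusted p under 0.05).

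Among the 4 higher genes, Clu was at 184, 186.1 and 296.9 CPM in the 6-OHDA samples, against 58.3, 57.6 and 84.7 CPM in the vehicle samples (log2 1.67 ± 0.290, edgeR adjusted p = 0.00819). Col5a2 was at 297.3, 297.8 and 312.1 CPM under 6-OHDA, against 148.7, 122.3 and 128.1 CPM under vehicle (log2 1.16 ± 0.240, edgeR adjusted p = 0.0289). The groups did not overlap for either gene. Both are genes of the arterial-marked cells, as given above, and in those cells alone their log2 differences were 1.10 and 0.95 and did not pass. With all samples pooled, Clu was at 91.65 CPM in large-vessel cells and at 204.5 CPM in aerocyte capillary cells. Col5a2 was at 182.9 CPM in large-vessel cells and at most 27.74 CPM in another endothelial type. Lsamp, a neural adhesion gene, ranged from 43.4 to 311.4 CPM under 6-OHDA, against 20.7 to 31.5 CPM under vehicle, so that 1 sample held much of the rise (log2 2.63, edgeR adjusted p = 0.0211). Fam135a rose by 1.36 on the same scale. Of these 4 genes, Clu was lost in 1 (without vehicle sample 1, edgeR adjusted p = 0.119), Lsamp and Fam135a in 4 and Col5a2 in all 6 of the fits that each left out 1 sample. Without vehicle sample 1 the whole comparison kept 1 call, and without 6-OHDA sample 3 it had 18.

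No single member of the arterial list passed the test. Of its 16 genes, 14 were tested, all 14 had a log2 difference above 0 and 0 were called, with a median of 0.82 against 0.01 over all genes tested. Its summed level was 4659 to 6359 CPM under 6-OHDA and 3049 to 3915 CPM under vehicle, without overlap, and 13% of all genes tested did not overlap between these groups. Bmx, for example, was at 155.7, 117.9 and 114.2 CPM under 6-OHDA, against 62.1, 50.4 and 53.2 CPM under vehicle (log2 1.19 ± 0.406, edgeR adjusted p = 0.333). Gja5 averaged 70.0 ± 38.9 CPM under 6-OHDA and 21.8 ± 6.57 CPM under vehicle, with overlap (log2 1.81, edgeR adjusted p = 0.135).

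Of the 16 venous genes, 13 were tested. Slc6a2 alone was called, 11 were below 0 and the median was -0.65, and the summed levels overlapped (3822 to 9965 CPM under 6-OHDA and 4707 to 8598 CPM under vehicle). Prss23, a serine protease gene, was at 184, 173.7 and 190.3 CPM under 6-OHDA, against 406.5, 302.3 and 335 CPM under vehicle (log2 -0.95, edgeR adjusted p = 0.094). Selp, at 0.07, and Vcam1, at -0.03 on the log2 scale, were close to 0. Summed alveolar macrophage markers were at 325.6 to 471.5 CPM in the 6-OHDA samples, against 508.1 to 755.7 CPM in the vehicle samples, without overlap and with 0 of 8 tested markers called. The sums of the leukocyte, fibroblast, mural, epithelial, mesothelial, lymphatic and erythroid and platelet markers overlapped, and the part of the macrophage transcripts in these differences was not tested.

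Other lists of vessel biology held few calls under 6-OHDA. Of 24 genes of the Notch pathway, which sets arterial identity, 16 were tested, 0 were called and 13 were above 0 (median log2 0.24), with sums of 2519 to 2946 CPM in 6-OHDA samples against 1914 to 2266 CPM in vehicle samples. Of 53 genes of the extracellular matrix, 37 were tested and Col5a2 was the 1 called, with 27 above 0 (median 0.24) and sums of 9455 to 9689 CPM in 6-OHDA samples against 7809 to 8792 CPM in vehicle samples. Neither pair of sums overlapped. Of 26 leukocyte adhesion genes, 18 were tested and 0 called (median 0.10), and the sums overlapped. Of 28 cell cycle genes, 8 were abundant enough to test and Ccnd3 was the 1 called. Markers of aerocytes, the gas-exchange capillary type, summed to 403.4 to 552.1 CPM in 6-OHDA samples against 244.7 to 352.8 CPM in vehicle samples without overlap, with 0 of 5 tested called. The largest members of that sum were Kdr, Igfbp7 and Cyp4b1, with 589, 358 and 268 transcripts over all samples. Car4, Ednrb, Apln, Fibin and Tbx2 of the same list had 28, 62, 6, 2 and 14 and were too sparse to test. The part of such transcripts in the other differences was not tested.

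**Figure D4:**
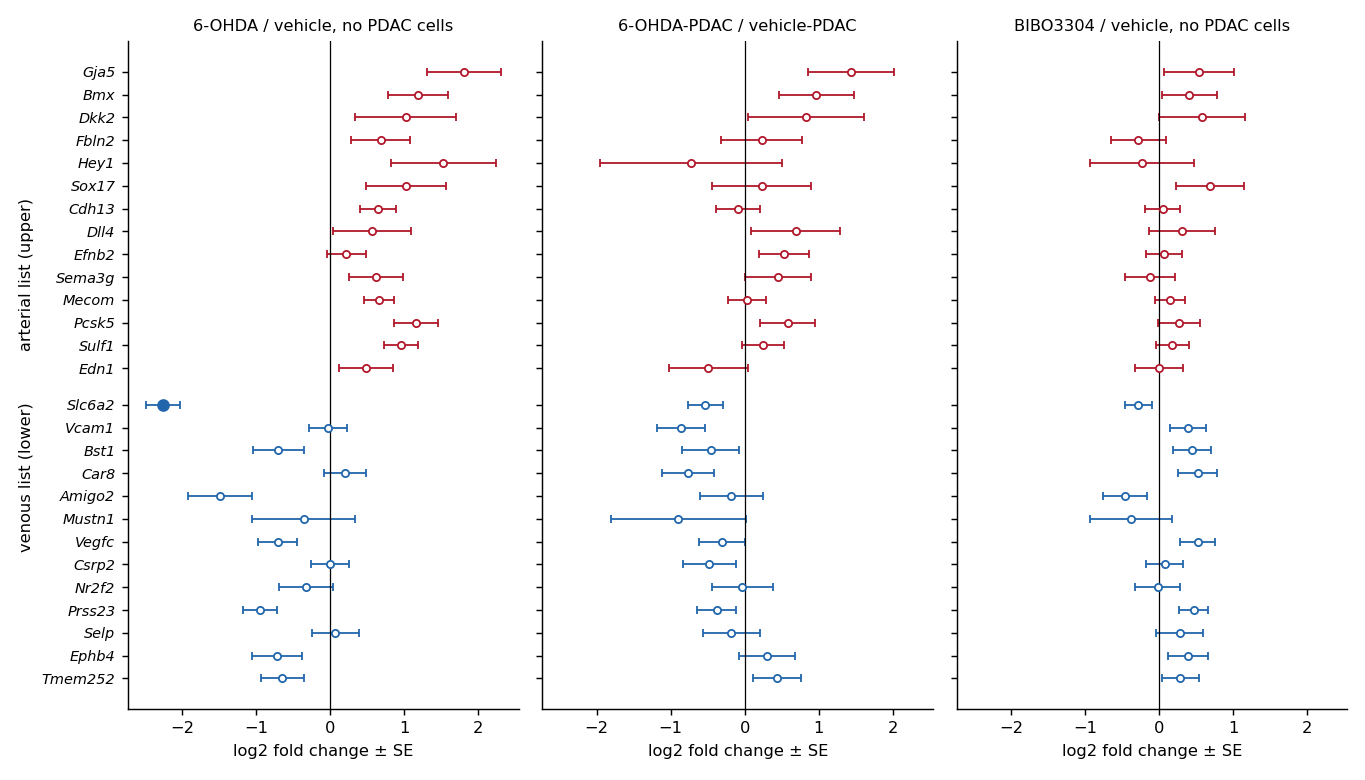
Log2 fold changes with SE of the tested genes of the arterial list (upper, red) and of the venous list (lower, blue) in 3 comparisons. A filled point marks a gene called by edgeR at an adjusted p under 0.05, which was Slc6a2 (-2.26) in 6-OHDA against vehicle. All 14 arterial genes lie above 0 in that panel, 11 of 14 in each of the other two.

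The next question was how large-vessel cells of 6-OHDA lungs with PDAC cells compared with those of 6-OHDA lungs without them. Slc6a2 was at 478.6 and 550.8 CPM in the 6-OHDA-PDAC samples, against 155.7, 117.9 and 98.96 CPM in the 6-OHDA samples. The groups did not overlap (log2 2.04 ± 0.265, edgeR adjusted p = 9.2e-05), and the gene stayed past the threshold without any 1 of the 5 samples (largest adjusted p 0.00483). Slco2a1 was at 951.6 and 917.9 CPM in the 6-OHDA-PDAC samples, against 382.2, 372.2 and 380.6 CPM in the 6-OHDA samples (log2 1.31 ± 0.242, edgeR adjusted p = 0.0238). Its call was lost in each of the 5 fits that left out 1 sample, although the log2 difference stayed at 1.26 to 1.34. These were the 2 genes called (0.0342% of those tested).

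In venous-marked cells Slc6a2 was at 700.5 and 774.4 CPM in the 6-OHDA-PDAC samples, against 260.5, 241.8 and 199.7 CPM in the 6-OHDA samples. It was called there with Slco2a1 and Mir100hg (0.0642% of 4676 genes), at log2 differences of 1.64 for Slc6a2 and 1.55 for Slco2a1 (edgeR adjusted p = 0.0207 each). Those venous calls did not hold throughout: Slc6a2 was past the threshold in 1 of the 5 fits that left out 1 sample (log2 1.56 to 1.76), and lost without 6-OHDA 1 (edgeR adjusted p = 0.0504), 6-OHDA 2 (0.0849), 6-OHDA-PDAC 1 (0.156) or 6-OHDA-PDAC 2 (0.168). At 1000 transcripts per cell, 44.1 ± 1.25% of venous-marked cells had a Slc6a2 transcript in 6-OHDA-PDAC lungs (n = 2) and 14.2 ± 5.20% in 6-OHDA lungs (n = 3), without overlap (exact permutation p = 0.2, the smallest possible). Hpgd was at 214 and 347.8 CPM in the 6-OHDA-PDAC samples, above the 68.5 to 130.3 CPM of the 6-OHDA samples, and did not pass (log2 difference with SE 1.5 ± 0.347, edgeR adjusted p = 0.273). Large-vessel cells were 9.995 ± 3.49% of endothelial cells in 6-OHDA-PDAC lungs (n = 2) and 10.3 ± 2.17% in 6-OHDA lungs (n = 3), with overlap (exact permutation p = 0.8). Of the arterial list, 12 of 14 tested genes were below 0 and 0 called (median -0.35), and its sums of 3604 to 4448 CPM in 6-OHDA-PDAC and 4659 to 6359 CPM in 6-OHDA samples did not overlap. The share of genes whose groups did not overlap was 20.1% in this comparison. The sum of the alveolar macrophage markers was 106.3 to 309.7 CPM in 6-OHDA-PDAC samples and 325.6 to 471.5 CPM in 6-OHDA samples, and its part in the result was not tested.

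**Figure D5:**
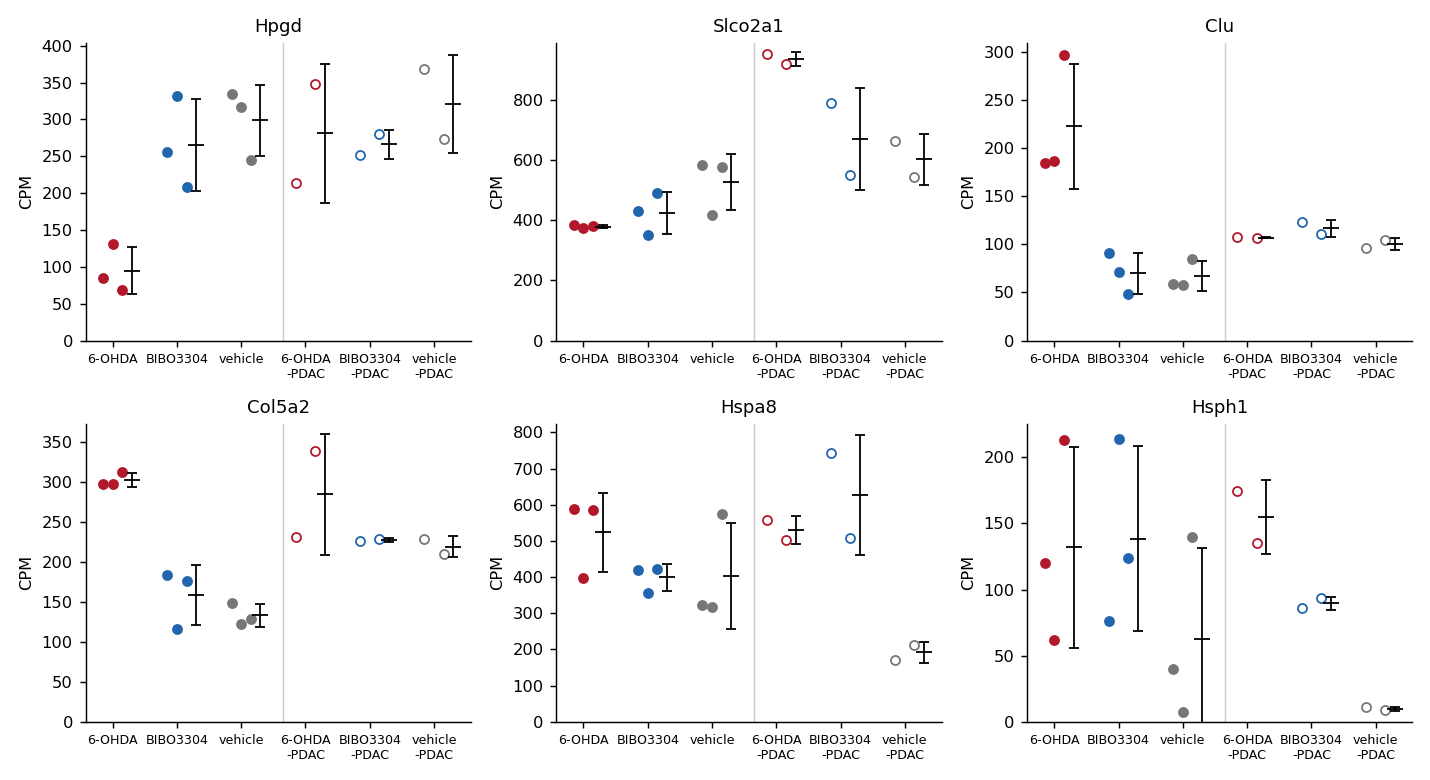
CPM per sample of 6 genes in all large-vessel cells, with points for samples (filled without, open with PDAC cells) and bars for mean ± SD. Hpgd is lowest in the 6-OHDA samples (68.5 to 130.3 CPM), Slco2a1 highest in the 6-OHDA-PDAC samples (917.9 and 951.6 CPM), and Hspa8 lowest in the vehicle-PDAC samples (171.5 and 212.6 CPM).

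Set against vehicle-PDAC lungs, 6-OHDA-PDAC lungs gave 0 called genes by edgeR, with 340 at an unadjusted p under 0.05 and 1 call by DESeq2. Slc6a2 was at 478.6 and 550.8 CPM in 6-OHDA-PDAC samples, against 744.3 and 733.8 CPM in vehicle-PDAC samples, without overlap (log2 -0.53, edgeR adjusted p = 0.846, and -0.55 without vehicle-PDAC 2). Such separation was found for 35.5% of all genes tested here, as each group holds 2 samples. The difference between the 6-OHDA effects with and without PDAC cells was 1.73 ± 0.339 on the log2 scale for Slc6a2 and did not pass (edgeR adjusted p = 0.105, and 1.72 with adjusted p = 0.339 without vehicle-PDAC 2). Over all genes that test of the difference called 0, with 313 at an unadjusted p under 0.05 and 1 by DESeq2. Large-vessel cells were 12.5% and 7.53% of endothelial cells in 6-OHDA-PDAC lungs, against 16.1% and 23.5% in vehicle-PDAC lungs. These did not overlap (exact permutation p = 0.333, the smallest possible), and without vehicle-PDAC 2 the difference was -6.07 percentage points. The venous share of classed cells was 56.9% in 6-OHDA-PDAC and 73.0% in vehicle-PDAC lungs, but 66.7% and 68.3% after thinning to 1000 transcripts. Without vehicle-PDAC 2 the unthinned difference was -20.2 percentage points.

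Heat shock chaperones, which refold other proteins after stress, lay mostly to one side between lungs with PDAC cells. Of 18 genes, 17 were tested, and all 17 were above 0 in 6-OHDA-PDAC against vehicle-PDAC (median log2 0.93, with -0.01 over all genes), with 0 called. Their sum was 3169 to 3840 CPM in 6-OHDA-PDAC samples, against 1429 to 1779 CPM in vehicle-PDAC samples. Among samples without PDAC cells it was 2345 to 4857 CPM under 6-OHDA, 2337 to 3395 CPM under BIBO3304 and 1848 to 3151 CPM under vehicle. Both treated ranges overlapped that of vehicle. Hsph1, an Hsp110 gene, was at 174.6 and 135.3 CPM in 6-OHDA-PDAC samples, against 11.02 and 8.74 CPM in vehicle-PDAC samples (log2 3.90, edgeR adjusted p = 0.0655). The gene had few transcripts in the vehicle-PDAC samples, whose large-vessel cells held 645922 and 390358 transcripts in all. In venous-marked cells it passed (log2 4.62, edgeR adjusted p = 0.00864), the 1 call there (0.0214% of 4676 genes), and did so without vehicle-PDAC 2 (log2 4.81, edgeR adjusted p = 0.041). That call was lost without 6-OHDA-PDAC 1 (0.216) or vehicle-PDAC 1 (0.37). In all large-vessel cells without vehicle-PDAC 2, 16 of 16 tested chaperones were above 0 (median 1.22), with 0 called by edgeR. Alveolar macrophage markers summed to 106.3 to 309.7 CPM in 6-OHDA-PDAC and 350.9 to 1147 CPM in vehicle-PDAC samples, without overlap.

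In BIBO3304-PDAC against vehicle-PDAC, 15 of 17 chaperones were above 0 (median 0.86), and their sum was 3034 to 3319 CPM in BIBO3304-PDAC samples. Hspa8, the constitutive Hsp70 chaperone gene, was at 743.5 and 508.6 CPM in BIBO3304-PDAC samples, against 171.5 and 212.6 CPM in vehicle-PDAC samples (log2 1.74 ± 0.296, edgeR adjusted p = 0.0119). It was the 1 gene called (0.0171%), and the call was lost in 3 of the 4 fits that left out 1 sample, the one without vehicle-PDAC 2 among them. Without vehicle-PDAC 2, 14 of 16 tested chaperones were above 0 (median 1.06). Both comparisons share the vehicle-PDAC samples. Those samples were also below the vehicle samples without PDAC cells, with 16 of 17 chaperones below 0 (median -0.60; 14 of 16 without vehicle-PDAC 2) and sums of 1429 to 1779 CPM in vehicle-PDAC and 1848 to 3151 CPM in vehicle samples.

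Sele was at 166 and 161 CPM in BIBO3304-PDAC samples, against 823 and 384.4 CPM in vehicle-PDAC samples (log2 -1.89, edgeR adjusted p = 0.49, and -2.35 with 0.0684 without vehicle-PDAC 2). Vcam1 was at 365.1 and 457.7 CPM in BIBO3304-PDAC samples, against 1164 and 786.2 CPM in vehicle-PDAC samples (log2 -1.27, edgeR adjusted p = 0.49, and -1.55 with 0.181 without vehicle-PDAC 2). Neither adhesion gene passed, and 35.7% of all genes tested did not overlap between these groups. Slc6a2 was at 786.6 and 737.4 CPM in BIBO3304-PDAC samples and at 744.3 and 733.8 CPM in vehicle-PDAC samples, which overlapped. Summed epithelial markers were at 312 to 491.6 CPM in BIBO3304-PDAC samples, against 99.1 to 253.3 CPM in vehicle-PDAC samples, and their part in these differences was not tested.

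BIBO3304 without PDAC cells gave 0 called genes against vehicle by edgeR, with 420 at an unadjusted p under 0.05 and 1 call by DESeq2. Slc6a2 was at 497.1, 524.7 and 459.3 CPM in BIBO3304 samples, below the 549.5, 611.7 and 634.6 CPM of vehicle samples without overlap (log2 -0.28 ± 0.186, edgeR adjusted p = 0.819). In this comparison 14.7% of all genes did not overlap. Jund, an AP-1 transcription factor gene, had the smallest p, at 729, 389.8 and 574.6 CPM in BIBO3304 samples, against 1086, 1922 and 1182 CPM in vehicle samples (log2 -1.29 ± 0.250, edgeR adjusted p = 0.0923). Large-vessel cells were 15.03%, 10.3% and 11.8% of endothelial cells in BIBO3304 samples, against 19.9%, 19.9% and 18.8% in vehicle samples, without overlap (exact permutation p = 0.1). Here the arterial-marked cells did not overlap, at 2.82 ± 0.929% of endothelial cells under BIBO3304 and 5.28 ± 1.79% under vehicle (exact p = 0.1, n = 3 each). The venous-marked cells overlapped (8.73 ± 1.24% and 11.8 ± 1.94%). Of all cells, large-vessel cells were 2.93 ± 0.443% under BIBO3304 and 2.72 ± 0.895% under vehicle. Arterial-marked cells were 0.665 ± 0.202% and 0.681 ± 0.059% of all cells, and venous-marked cells 2.06 ± 0.181% and 1.71 ± 0.777%. Each of these pairs overlapped. In a share of endothelial cells, fewer large-vessel cells and more capillary cells cannot be told apart. Among arterial-marked cells, 0 of 90 had a Slc6a2 transcript under BIBO3304 and 12 of 150 had one under vehicle. A count of 0 of 90 allows a share of cells with a transcript of up to 3.33% by counting error alone, which leaves out the spread between samples and sets no limit on cells that express the gene. By sample these were 0% in each BIBO3304 sample and 8.46 ± 3.81% in vehicle samples (exact permutation p = 0.1, n = 3 each), with medians of 1760.5 to 2582 transcripts per such cell under BIBO3304 and 1258 to 1463 under vehicle.

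Type I interferon genes lay above 0 for all 13 of the 13 tested under BIBO3304 (median log2 0.49), with 0 called and with overlapping sums, which were 712.2 to 1088 CPM under BIBO3304 and 518.2 to 766.6 CPM under vehicle. Marker sums of fibroblasts (66.4 to 157.7 against 193.8 to 237.5 CPM), mural cells (17.1 to 31.1 against 47.0 to 71.0 CPM) and alveolar macrophages (199.2 to 408.7 against 508.1 to 755.7 CPM) were lower in BIBO3304 than in vehicle samples without overlap. Their part in the gene differences was not tested.

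BIBO3304-PDAC against BIBO3304 gave 7 called genes (0.12%), 6 higher (0.102%) and 1 lower (0.0171%). Col3a1, a fibrillar collagen gene of fibroblasts, was at 79.7 and 186.5 CPM in BIBO3304-PDAC samples, against 23.9, 17.1 and 23.9 CPM in BIBO3304 samples (log2 2.46, edgeR adjusted p = 0.0261). C3, the complement component gene, rose by a log2 of 2.53 and Gas7 by 3.58. Mgp, which encodes an inhibitor of calcification, rose by 1.28, and the ribosomal protein genes Rplp1 and Rpl39 by 1.76 and 2.12. The Rpl39 value was 1.24 without BIBO3304-PDAC 2 and at most 2.88 without another sample. Lhfp was at 156 and 161 CPM in BIBO3304-PDAC samples, against 442.2, 526.9 and 431 CPM in BIBO3304 samples (log2 -1.56, edgeR adjusted p = 0.0472). Each call was lost in 4 or 5 of the 5 fits that left out 1 sample. Summed markers of several other lineages were higher in BIBO3304-PDAC than in BIBO3304 samples. They were 172.6 to 398.4 against 66.4 to 157.7 CPM for fibroblasts and 434.8 to 1102 against 199.2 to 407.0 CPM for leukocytes. For alveolar macrophages they were 471.3 to 983.2 against 199.2 to 408.7 CPM, and for epithelium 312 to 491.6 against 111.4 to 261.2 CPM. The fibroblast sum counts Col3a1 itself, at the levels given above, so it is not separate from that call. Without the cells that carried at least 2 transcripts of other lineages, 1074 cells and 3836 tested genes were left and edgeR called 0 genes (299 at an unadjusted p under 0.05). Of the 7, the 4 still tested there were at log2 differences of 1.74 (Rplp1), 1.07 (Mgp), 1.14 (Rpl39) and -1.09 (Lhfp). Col3a1 is itself among the transcripts by which cells were left out, so that fit cannot retest its call. The part of transcripts of other lineages in the calls was not tested.

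Vehicle-PDAC against vehicle gave 0 calls by edgeR and 0 by DESeq2, with 241 genes at an unadjusted p under 0.05 by edgeR. Without vehicle-PDAC 2 edgeR again gave 0. Slc6a2 was at 744.3 and 733.8 CPM in vehicle-PDAC samples, above the 549.5, 611.7 and 634.6 CPM of vehicle samples (log2 0.31, edgeR adjusted p = 0.998), and 20.5% of all genes did not overlap there. Large-vessel cells were 16.1% and 23.5% of endothelial cells in vehicle-PDAC lungs, on either side of the 18.8 to 19.9% in vehicle lungs. The difference between the BIBO3304 effects with and without PDAC cells also called 0 genes, with 437 at an unadjusted p under 0.05 and 2 by DESeq2, and called 4 without vehicle-PDAC 2.

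The receptors of the sympathetic transmitters were sparse in these cells. Npy1r, the target of BIBO3304, and Npy had 0 transcripts among all 1952 large-vessel cells, which allows up to 0.615 CPM, whereas smooth muscle cells and pericytes held Npy1r at 42.6 CPM. Adrb1, the beta-1 adrenergic receptor gene, was at 26.7 CPM in large-vessel cells and 83.0 CPM in general capillary cells. It averaged 16.2 ± 8.16 CPM in 6-OHDA samples and 36.8 ± 11.7 CPM in vehicle samples (SD, n = 3 each), without overlap and without passing the test (log2 -1.18, edgeR adjusted p = 0.707). These levels rest on 1, 3 and 3 Adrb1 transcripts in the 6-OHDA samples and on 26, 5 and 13 in the vehicle samples. Between these groups 13% of all genes tested did not overlap. Of the 20 genes for adrenergic receptors and for the handling of monoamines, 5 were abundant enough to test, and Slc6a2 was the 1 called under 6-OHDA. Th and Dbh, the synthesis genes of norepinephrine, had 0 transcripts.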

How the data were processed

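The authors deposited raw transcript counts per gene and cell and a table with each cell's sample, treatment, seeding state, type and percent of mitochondrial transcripts. The percent column was not analysed further, and its highest value was 9.99. The lowest number of genes per cell was 301. The GEO samples are 16 sublibraries that each mix all groups, so the 15 samples come from the deposited cell table, where the state written IV was read as PDAC cells seeded. The submitters' processing notes name Seurat 5.3.0 and the build mm39, but the sources used here give no aligner or cell filter. For 99.04% of cells the summed matrix matched the total in the cell table exactly.

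Counts of large-vessel cells were summed per sample (at least 20 cells). Genes were filtered with filterByExpr, scaled by TMM and fitted in 1 quasi-likelihood model of 6 groups with edgeR 4.0.16 (R 4.3.3, limma 3.58.1), adjusted by Benjamini-Hochberg over all genes tested. There were 7 comparisons and 2 interactions. CPM are TMM-scaled for samples and unscaled for pooled types. Venous- and arterial-marked cells were fitted likewise with at least 10 cells per sample. Shares were tested by two-sided exact permutation (smallest p 0.1 for 3 against 3, 0.2 for 2 against 3, 0.333 for 2 against 2), 84 such share comparisons with a smallest Benjamini-Hochberg adjusted p of 0.646 and so none past 0.05, and by edgeR over 22 types. No doublet caller was run. The procedure was tested on simulated data. DESeq2 1.42.0 was an alternative. Python 3.11.15 with scipy 1.17.1 read the matrix, and matplotlib 3.10.9 drew the figures.

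Genes to name were drawn by a rule. It took up to 10 largest rises and falls past the threshold with at least 20 CPM, and the 4 markers. It also took tested adrenergic, arterial and venous genes, up to 4 called genes per list, and the 5 smallest p where fewer than 8 passed. The text gives only some of the genes that this rule selects. Slco2a1 under 6-OHDA against vehicle, the heat shock and interferon counts, Vcam1 with PDAC cells and the class genes were chosen after their values were seen. The members and the 40 gene lists were chosen with earlier results of these data known. The main fits did not use the sample numbers to pair samples.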

Additional observations from a re-analysis of the deposited data

How the results depend on the processing

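Called genes under alternatives were as follows, in each case against the count in the report. For 6-OHDA against vehicle (11), there were 38 without a filter on low counts, 5 with only the groups compared, 6 without cells that carry transcripts of other lineages, 3 in venous-marked and 0 in arterial-marked cells, and 1 to 18 when each sample was left out in turn. For BIBO3304 against vehicle (0), there were 13 without a filter, 5 with only the groups compared and 1 each by DESeq2, without cells of other-lineage transcripts and in arterial-marked cells. Vehicle-PDAC against vehicle (0) had 9 without a filter. For 6-OHDA-PDAC against 6-OHDA (2), there were 7 without a filter, 5 by DESeq2, 0 in arterial-marked cells, 1 each with a minimum of 50 cells, only the groups compared, no other-lineage cells or a term for the venous share, and 1 to 2 with a sample left out. For BIBO3304-PDAC against BIBO3304 (7), there were 27 without a filter, 20 by DESeq2, 1 with the venous share as a term, 0 without other-lineage cells, 0 in either class and 0 to 7 with a sample left out. For 6-OHDA-PDAC against vehicle-PDAC (0), there were 8 without a filter, 4 with only the groups compared and 1 each by DESeq2, without other-lineage cells, with the venous share as a term and in venous-marked cells. BIBO3304-PDAC against vehicle-PDAC (1) had 8 without a filter, 3 with only the groups compared, 0 in arterial-marked cells and 0 to 1 with a sample left out. The 6-OHDA interaction (0) had 3 without a filter, 1 by DESeq2 and 0 to 2 with a sample left out, and the BIBO3304 interaction (0) had 5, 2 and 0 to 4. The fits by class, with the venous share and with crossed numbers were chosen after seeing the data, and the causes of these shifts were not tested.

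Deviations from the group mean in samples with the same number correlated at r between -0.126 and 0.12. Such values cannot show whether the numbers pair the samples, and the main fits treat the samples as unpaired. With the sample number as a replicate block, BIBO3304-PDAC against BIBO3304 had 3 calls, 6-OHDA-PDAC against vehicle-PDAC 3, and the log2 share of all cells of vehicle-PDAC against vehicle was 0. With crossed numbers 6-OHDA-PDAC against vehicle-PDAC also had 3.

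In arterial-marked cells alone, Slc6a2 was at -3.6 (edgeR adjusted p = 0.562) in 6-OHDA against vehicle and at 0.69 in 6-OHDA-PDAC against vehicle-PDAC, and Lhfp at 1.08 in BIBO3304-PDAC against BIBO3304. As a share of all cells (log2), 6-OHDA against vehicle was -1.03 without alveolar macrophages in the total and -0.96 to -0.56 with a sample left out. BIBO3304 against vehicle, 0.11 in the main setting, was -0.18 with TMM scaling, -0.28 without alveolar macrophages and -0.14 to 0.26 with a sample left out. With a sample left out, vehicle-PDAC against vehicle was -0.34 to 0.07 and BIBO3304-PDAC against vehicle-PDAC -0.53 to 0.07. As percentage points of endothelial cells those 2 comparisons were -3.47 to 4.02 and -5.93 to 1.56. The venous share of vehicle-PDAC against vehicle was -2.16 to 8.04 points, and that of BIBO3304-PDAC against vehicle-PDAC 1.41 points after thinning. With 39 to 262 cells per sample, genes of low level could not be tested, and groups of 2 samples cannot give an exact p under 0.2.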
